A study of Mus musculus with 2 samples.

Results

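Mediator is the large protein complex that carries signals from DNA-bound transcription factors to RNA polymerase II. Its head and middle modules contact the polymerase, its tail binds activators, the scaffold subunit MED14 joins the parts, and a kinase module that can dock and leave (CDK8 or CDK19, cyclin C, MED12 and MED13) controls whether the polymerase can bind. In embryonic stem cells Mediator is known for occupying the enhancers of pluripotency genes together with cohesin and its loader NIPBL. The Mediator subunit genes described here were chosen by name: they are the protein-coding genes whose symbol is Med followed by a number, with or without a final l. The rule found 30 genes among the 21551 protein-coding genes with a symbol and the 43629 gene identifiers in all. By module they are 7 genes of the head, 9 of the middle, 9 of the tail and its junction with the head, 4 of the kinase module, and Med14. The rule leaves out Cdk8, Cdk19 and Ccnc, so counts and medians of the kinase module below hold its Med genes only.

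The samples were 2 RNA-seq libraries of polyadenylated RNA from wild-type E14 cells, an embryonic stem cell line of mouse on a 129/Ola background, with blastocyst as the labelled tissue. One library has the age label P33 and the other P42, which the labels do not explain further. No treatment, and no allele other than wild type, is given for either library. The libraries held 40139219 counts (P33) and 39657578 counts (P42). Levels are given as CPM, the counts of a gene scaled to library size with edgeR's TMM factors, and levels of different genes are compared only as CPM per kilobase of merged exons.

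The 5 pluripotency markers checked (Pou5f1, Sox2, Nanog, Zfp42 and Esrrb) stood between 303 and 803 CPM in the P33 library and between 503 and 705 CPM in the P42 library. They did not move together: Sox2 was past 2-fold higher in P42, at 303 and 619 CPM, and Pou5f1 was lower, at 803 and 503 CPM, a log2 ratio of −0.67 (P42 over P33). The 6 fibroblast markers, which would mark feeder cells, summed to 37.8 and 30.9 CPM, mostly from Thy1, with Lum at 0 counts in both libraries, which allows up to 0.0712 and 0.0794 CPM. The 2 blood markers summed to 0.0474 and 0.0265 CPM, below those limits. The 4 primitive endoderm markers (Gata4, Gata6, Sox17 and Dab2) summed to 25.2 CPM in P33 and 86.3 CPM in P42, and all 4 were past 2-fold higher in P42. The part of this difference in any difference of the subunit genes was not tested. In RNA from a whole culture, fewer cells of a type and less RNA per cell cannot be told apart.

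With a single library behind each age label, the differences below have no replicate check and no p-value. A difference is the log2 ratio of P42 over P33 in CPM, and its 95% interval is an exact Clopper-Pearson interval that covers counting error only. The libraries differed by more than counting error for most genes, since the interval excluded equality for 78.6% of the 13737 genes that averaged 1 CPM or more, above it for 41.7% and below it for 36.9%. An interval that excludes equality is therefore common in these libraries and by itself says little about a subunit gene.

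How well reads can tell the subunit genes apart bears on every value. The nearest relatives are the vertebrate paralogs of the kinase module, Med12 with Med12l and Med13 with Med13l, and the kinase genes Cdk8 and Cdk19. The longest identical stretch that the coding sequences of each pair share is shown here in GENCODE's letters, 5′ to 3′. A read that lay wholly inside it would match both genes.
Med12 and Med12l: tgtgaatgggctgtaagctgcaaa
Med13 and Med13l: aatggcctttcctatgaatg
Cdk8 and Cdk19: gcagatttggatccagtggttgt
These stretches are 24, 20 and 23 bases long, and the whole transcripts compared hold no longer one. They lie in single exons, for Med12 at chrX:101278464-101278487 (plus strand), for Med13 at chr11:86345986-86346005 (minus strand) and for Cdk8 at chr5:146286155-146286177 (plus strand), all on GRCm38. Words of 50 bases from the longest coding transcript of each subunit gene were then searched in the annotated transcripts of genes elsewhere in the genome. For 25 of the 30 genes no word was shared. The others were Med4, with 11.2% of its words, Med16 with 3.37%, Med18 with 1.17%, Med27 with 1.04% and Med25 with 0.604%. Those of Med4 lie in the processed pseudogene Gm9434, which itself had 18 and 22 counts. Those of Med25 lie in the protein-coding gene Ptov1, which had 1563 and 940 counts, beside 1314 and 1019 for Med25. Both comparisons took exact matches only, so stretches that are similar but not identical were not measured. Exon bases outside the longest coding transcript, and genes that overlap a subunit gene, were not part of the search for words. For Med20 that transcript has 2054 bases, while the merged exons span 7324. Of these exon bases 21.4% are shared with the processed pseudogene Kpna2-ps on the opposite strand.

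All 30 subunit genes reached 1 CPM in each of the libraries, where 54.0% of all protein-coding genes did. Together they held 62284 counts in P33, or 0.155% of the library (0.154 to 0.156, exact 95% binomial interval), and 56972 counts in P42, or 0.144% (0.142 to 0.145). Their median level was 8.50 CPM per kilobase, beside 5.70 for all protein-coding genes that averaged 1 CPM or more. Although the proteins join the same complex, the transcript levels ran over a wide range, 78.7-fold from the lowest to the highest gene in P33 and 141-fold in P42. Without Med12l, the lowest, the range was 13.7-fold and 25.01-fold.

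By the mean of the libraries, the highest subunit gene per kilobase of merged exons was Med19, of the middle module, at 38.0 CPM per kilobase in P33 and 40.6 in P42, a mean of 39.3 ± 1.80 (SD, n = 2). Med6, whose protein joins the head to the middle, stood at 33.1 and 40.9, a mean of 37.0 ± 5.54 (SD, n = 2). Med30, a subunit of animals that yeast lacks, stood at 35.6 and 35.5, a mean of 35.5 ± 0.0174 (SD, n = 2). The range of Med6 over the libraries holds the values of both others, so its place among them is not settled by 2 libraries. Per kilobase of the longest transcript Med6 ranked 1, Med30 ranked 2 and Med19 ranked 3. For these genes the longest coding transcript is also the longest transcript. For Med21 the longest coding transcript has 814 bases against 3523 in the merged exons, and for Med10 913 against 4491. By that length both would stand higher. Genes were not ranked by it, so the top places are not settled. They came from different modules, and the next by mean, Med17, the core subunit of the head, stood at 21.7 and 22.8 CPM per kilobase of merged exons. In P42 Med7, at 26.3, was above Med17, which ranked 7 per kilobase of the longest transcript.

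At the other end, Med12l stood at 0.483 CPM per kilobase in P33 and 0.290 in P42, which rests on 260 and 140 counts. Only 2.99% of detected protein-coding genes had a lower level per kilobase. Med16, of the tail, followed at 2.78 and 1.64 CPM per kilobase, and Med15, the tail subunit that binds activators such as SREBP, at 3.68 and 2.99. The levels of Med12l in both libraries lay below those of every other subunit gene. Med16 lay below Med15 in both, while the range of Med15 overlaps that of Med25, at 4.09 and 3.54. For Med15 the length matters: the merged exons span 11642 bases against 3475 bases in the longest transcript, and per kilobase of the latter it ranked 16 of 30 in place of 28.

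By module, the median level was 15.6 CPM per kilobase for the middle, 12.6 for the head, 8.04 for the scaffold gene Med14, 7.92 for the kinase module and 5.84 for the tail. The middle and head modules also led in each library alone, with medians of 12.7 and 11.8 in P33 and of 16.3 and 13.3 in P42. Within modules the genes differed more than the medians do. The head ran from Med6 down to Med20, whose protein pairs with MED18 in the movable jaw of the head, at 3.94 and 4.35 CPM per kilobase. This place of Med20 depends on the length used, as its merged exons span 7324 bases against 2054 in its longest coding transcript. The tail ran from Med30 down to Med16. The order of the scaffold and kinase modules changed with the library and with the length used.

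**Figure D1:**
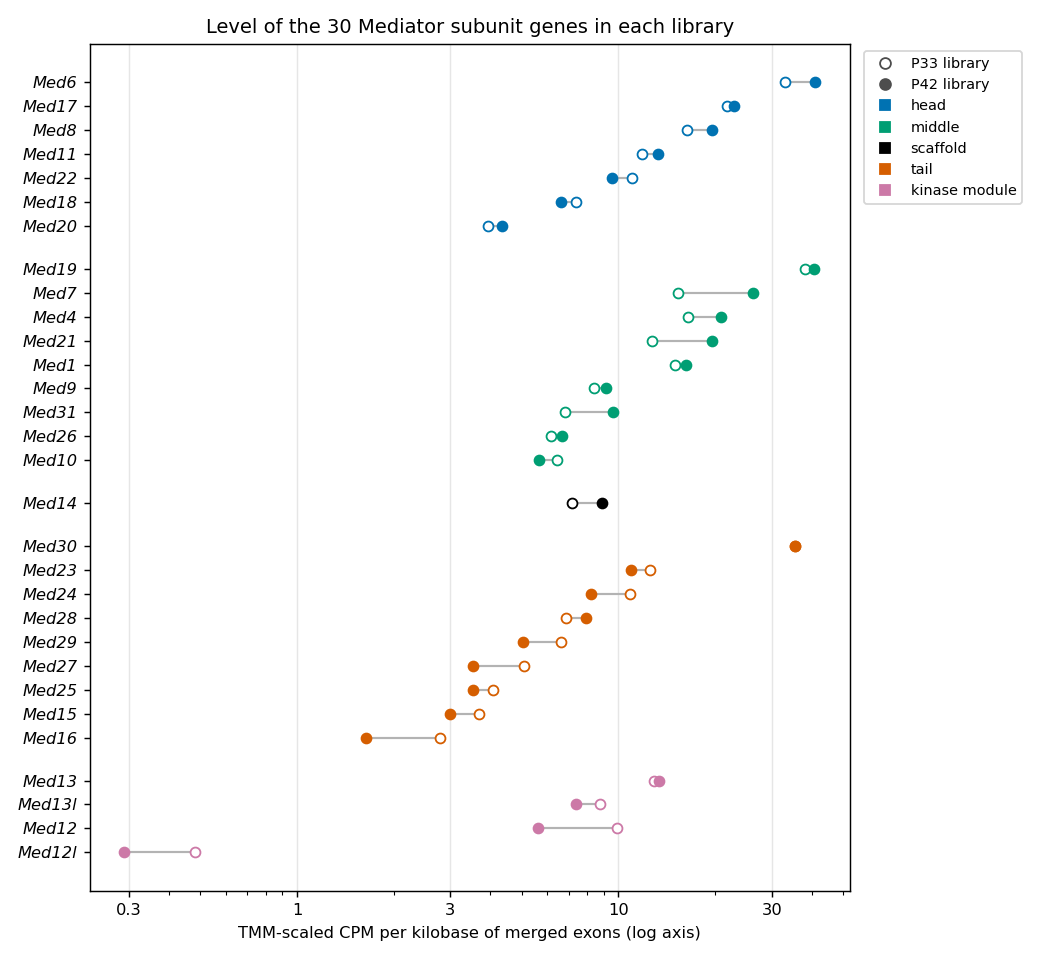
Level of each of the 30 Mediator subunit genes in TMM-scaled CPM per kilobase of merged exons (log axis), with the P33 library as open and the P42 library as filled circles joined by a line, coloured by module. Med19, Med6 and Med30 lie at 33.1 to 40.9 in both libraries, and Med12l lies at 0.483 and 0.290, below every other gene.

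The kinase module holds the largest contrast between paralogs. Med12, which activates the kinase through cyclin C, stood at 9.90 CPM per kilobase in P33 and 5.62 in P42, 20.5-fold and 19.3-fold above Med12l. Its share of the summed level of the pair was 95.3% (94.7 to 95.9, exact 95% binomial interval carried over to the level) in P33 and 95.1% (94.2 to 95.9) in P42. The intervals of this share overlap, while both genes were lower in P42. A further limit for Med12l is that 15.3% of its exon bases are shared with Igsf10 on the opposite strand, a gene with 211 and 173 counts, and the setting for strand is not given in the sources used here. The shared part is larger for Med10, Med31, Med20 and Med7, as given with the processing below.

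Med13 and Med13l, which link the kinase module to the core complex, were closer together. Med13 stood at 12.9 and 13.4 CPM per kilobase and Med13l at 8.78 and 7.38. The share of Med13 was 59.6% (58.7 to 60.5) in P33 and 64.5% (63.6 to 65.4) in P42, intervals that do not overlap. This rise is not settled either. With the trend on GC content and length removed, the log2 ratio was −0.10 for Med13 and 0.05 for Med13l, the opposite order. Which paralog is higher depends on the length: per kilobase of the longest transcript the share of Med13 was 47.7% in P33 and 52.9% in P42. Among the kinases themselves, which the naming rule leaves out, Cdk8 stood at 7.79 and 12.9 CPM per kilobase and Cdk19 at 4.37 and 5.02. The share of Cdk8 was 64.0% (62.4 to 65.6) in P33 and 72.01% (70.7 to 73.3) in P42. Cyclin C (Ccnc), the partner of either kinase, stood at 11.8 and 16.8 CPM per kilobase.

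No subunit gene differed 2-fold or more between the libraries, where 14.6% of the tested genes did, 5.07% higher and 9.54% lower in P42. Among the 8389 protein-coding genes within the subunit genes' range of mean CPM, 312 were 2-fold higher and 600 lower. At 1.5-fold, 2 subunit genes were higher in P42 and 3 lower, so 5 of 30, where 35.0% of all genes passed, 16.1% higher and 18.9% lower. The median size of the log2 ratio was 0.23 over the 30 genes, beside 0.41 over all genes and 0.38 over the 8389 protein-coding genes within the same range of mean CPM. These are descriptions of 1 pair of libraries. The median log2 ratio of the 30 genes was 0.06, beside 0.04 over all genes, and the choice of scaling decides its sign, as it was −0.080 when scaled by total counts.

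The genes nearest to 2-fold were Med12, Med7 and Med16. Med12 stood at 76.2 CPM in P33 and 43.3 in P42, a log2 ratio of −0.82 (−0.90 to −0.73). It lies on the X chromosome, where the median ratio of 534 genes was 0.16. Med16 stood at 13.0 and 7.63 CPM, a ratio of −0.77 (−0.98 to −0.56), and Med12l at 6.17 and 3.71 CPM, a ratio of −0.73 (−1.04 to −0.43). In the other direction Med7, which with MED21 forms the hinge of the middle module, stood at 44.1 CPM in P33 and 75.4 in P42, a ratio of 0.77 (0.69 to 0.86). Its partner Med21 stood at 44.8 and 69.1 CPM, a ratio of 0.63 (0.54 to 0.71). Per kilobase the pair stood at 15.4 (Med7) and 12.7 (Med21) in P33 and at 26.3 and 19.6 in P42, an order that turns with the length used, since per kilobase of the longest transcript Med7 stood at 17.3 and 29.6 and Med21 at 26.1 and 40.3.

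Directions differed by module. In the middle module 8 of 9 genes and in the head 5 of 7 had a ratio above 0, with medians of 0.12 and 0.14, and Med14 stood at 0.32 (0.24 to 0.39). In the tail 8 of 9 genes and in the kinase module 3 of the 4 Med genes had a ratio below 0, where 47.3% of all genes did. Their medians were −0.30 and −0.49. Cdk8, Ccnc and Cdk19, of the kinase module but outside the naming rule, stood above 0, at 0.73, 0.51 and 0.20. Counting error alone was exceeded downwards by 7 tail genes and upwards by Med28, at 0.21 (0.11 to 0.32), and Med30 at −0.00 (−0.10 to 0.10) was the other. The side of the head and middle depends on scaling, which moves all genes alike. By total counts 57.3% of all genes lay below 0, as did 8 of the 16 head and middle genes (3 with TMM) and 12 of the 13 tail and kinase genes (11 with TMM). No test of a difference between modules is possible with 1 library per label.

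The extremes of each module mark its spread. In the head they were Med6 at 0.31 (0.22 to 0.39) and Med22 at −0.20 (−0.30 to −0.09), both small in fold. In the middle they were Med7 and Med10, the latter at −0.18 (−0.31 to −0.06). Med1, the subunit that binds nuclear receptors, stood at 131 and 143 CPM, with a ratio of 0.12 (0.06 to 0.17), below 0 when scaled by total counts. Med26, which docks elongation factors and is absent from the form of Mediator that carries the kinase, stood at 18.5 and 20.05 CPM, a ratio of 0.12 (−0.03 to 0.27), likewise below 0 by total counts. In the kinase module Med13 stood at 140 and 145 CPM, a ratio of 0.05 (−0.00 to 0.10). This interval held 0, while that of Med12 lay well below. By total counts the ratio of Med13 was −0.09. With the trend on GC content and length removed it was −0.10 (−0.15 to −0.04), an interval below 0.

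Inside the kinase module the genes went different ways. While Med12, Med12l and Med13l, at −0.25 (−0.31 to −0.19), were lower in P42, Cdk8 stood at 76.6 CPM in P33 and 127 in P42, a ratio of 0.73 (0.66 to 0.79). Ccnc had a ratio of 0.51 (0.44 to 0.59) and Cdk19 one of 0.20 (0.08 to 0.32). The opposite directions of Med12 and Cdk8 do not depend on the scaling of libraries, which shifts every gene by the same amount of at most 0.14. With the trend on GC content and length removed, Med12 stood at −0.65 and Cdk8 at 0.58. Med12l changed little, from −0.73 to −0.69. Ccnc, Cdk19 and Med13l came closer together: Ccnc stood at 0.20, Cdk19 at 0.02 (−0.10 to 0.14), whose interval holds 0, and Med13l at 0.05, on the other side of 0.

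**Figure D2:**
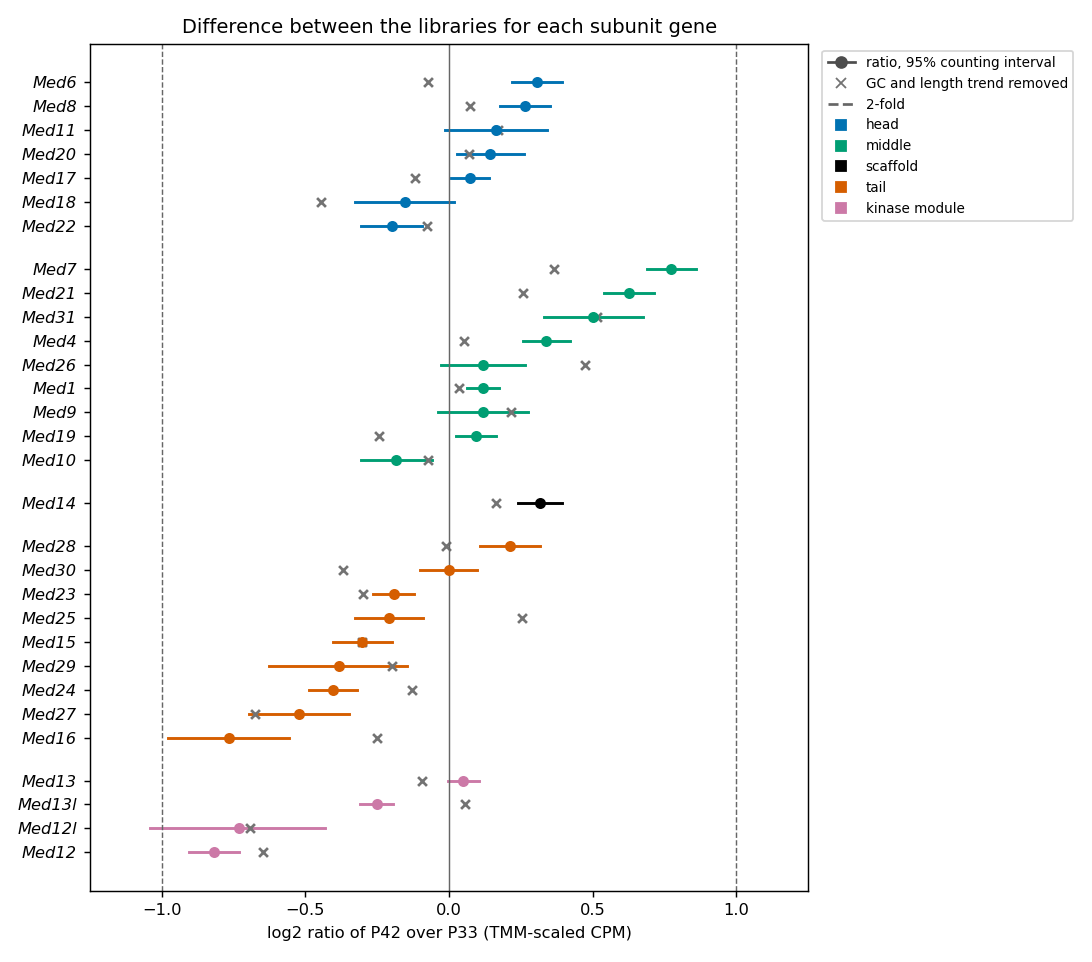
Log2 ratio of P42 over P33 for each subunit gene (circles) with its 95% counting interval (lines), and the ratio after removal of the trend on GC content and length (crosses), with dashed lines at 2-fold. All circles lie inside the dashed lines, and 11 of the 13 Med genes of the tail and kinase module lie left of 0 (12 when scaled by total counts, which moves each circle to the left by 0.14). Cdk8, Cdk19 and Ccnc are not drawn.

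Transcript GC content moved with these ratios. Over all genes the median log2 ratio went from 0.33 in the GC decile of lowest content to −0.48 in the highest. Over the 30 subunit genes Spearman's rho between GC content and the ratio was −0.48, and over all 13668 genes with a GC value it was −0.39. These points share the same 2 libraries, so the coefficients are descriptions. The 15 subunit genes of lower GC content had a median ratio of 0.09 and the 15 of higher content one of −0.20.

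Med7 and Med16, the genes of highest ratio in the middle and lowest in the tail, stood at the ends of this range. The longest transcript of Med7 has a GC content of 40.2%, the lowest of the 30 genes, and that of Med16 one of 60.2%, the highest.

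With the trend on GC content and exon length removed over all genes, the ratio of Med16 was −0.25 in place of −0.77, and that of Med7 was 0.37 in place of 0.77. Others kept a large difference. Med12 stood at −0.65, Med12l at −0.69, Med27 at −0.67 in place of −0.52, and Med31 at 0.52 in place of 0.50. Med12l has a GC content of 47.0% and Med27 one of 49.6%, near the median of all genes, and both lay below the lower quartile of their GC decile. Med25, at 57.4%, changed sign, from −0.21 to 0.25, and Med26, at 58.4%, went from 0.12 to 0.47. After this step 8 of 9 tail genes and 3 of the 4 Med genes of the kinase module lay below 0, where 50.6% of all genes did. Cdk8, Ccnc and Cdk19 stayed above 0. In the head 3 of 7 genes and in the middle 7 of 9 lay above 0.

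**Figure D3:**
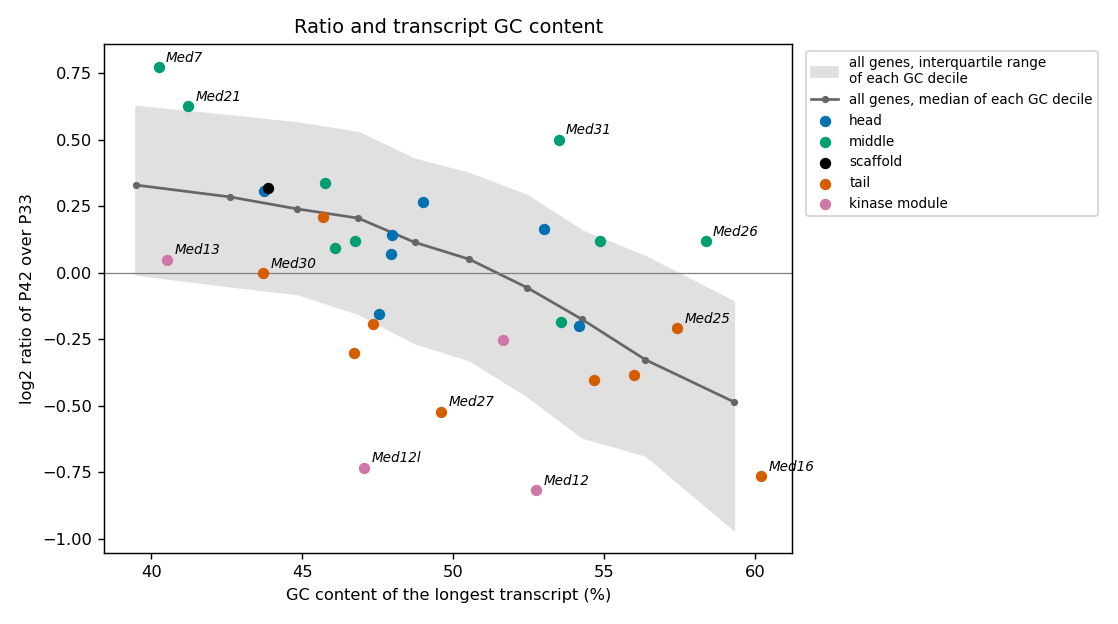
Log2 ratio of P42 over P33 against the GC content of the longest transcript for the 30 subunit genes, coloured by module, over the median (line) and interquartile range (grey) of all genes in each GC decile. Med7 at 0.77 and Med16 at −0.77 have the lowest and highest GC content, and against the quartiles of their own decile 21 genes lie inside, 3 above (Med7, Med26 and Med31) and 6 below (Med12, Med12l, Med15, Med18, Med23 and Med27).

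The position of Med30 stands beside a feature of the whole chromosome. Med30 lies on chromosome 15 (chr15:52712408-52730564, plus strand, GRCm38), where the median log2 ratio of 539 genes was −0.61 and 83.5% of them lay below 0. Med30 itself had 1776 and 1590 counts, 42.1 CPM in each library, a ratio of −0.00. The 7 genes that start within 1 Mb of it had a median of −0.69, from Samd12 at −1.85 and Ext1 at −1.31 to the cohesin gene Rad21 at −0.00. With the trend on GC content and length removed Med30 stood at −0.37. No subunit gene lies on chromosome 1, where the median ratio was 0.60. The medians of the other chromosomes that hold subunit genes lay between −0.17 (chromosome 7, Med25 and Med29) and 0.20 (chromosomes 13 and 14, Med10 and Med4). Chromosome 11 holds 7 of the 30 genes, with ratios from −0.40 for Med24 to 0.77 for Med7.

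**Figure D4:**
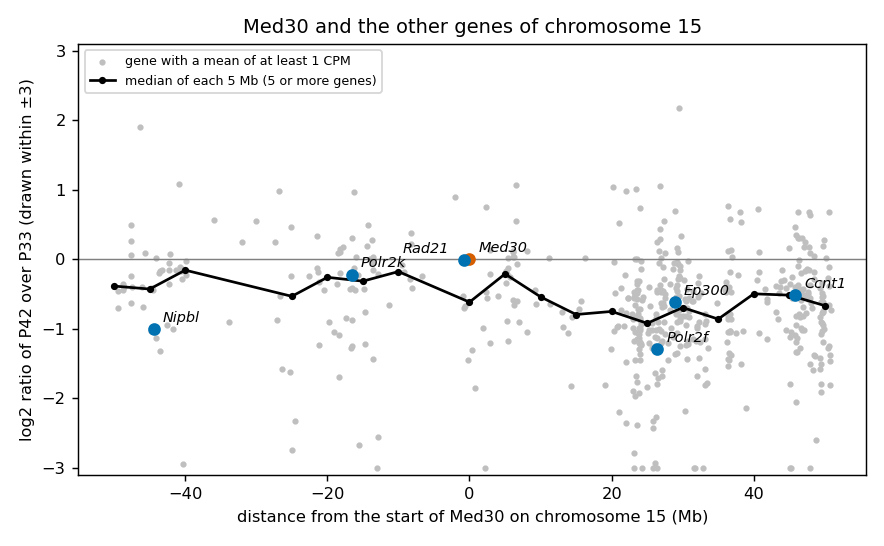
Log2 ratio of P42 over P33 for the 539 tested genes of chromosome 15 against the distance of their start from that of Med30 (12 genes beyond ±3 are drawn at the limit). The black line gives the median of each 5 Mb that holds 5 or more genes. Most genes lie below 0, while Med30 and Rad21 lie at −0.00.

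Genes whose products work with Mediator were described by the same rule. Of the 12 RNA polymerase II subunit genes all were detected and 1 was past 2-fold, which is near the 9.54% of all genes past 2-fold lower. It was Polr2f, at 56.6 CPM in P33 and 23.2 in P42, a ratio of −1.29 (−1.40 to −1.17). The 2 most abundant per kilobase, Polr2b and Polr2a, which encode the large subunits, stood at 86.8 ± 2.45 and 80.6 ± 12.4 CPM per kilobase (SD, n = 2), above every Mediator subunit gene. The list's median ratio was −0.17. The 18 general transcription factor genes held none past 2-fold, with a median ratio of 0.26. Of these, 4 lay below 0, where 47.3% of all genes did. With the trend on GC content and length removed 9 of the 18 lay below 0, where 50.6% of all genes did. Their most abundant members were Gtf2h1 at 54.0 ± 5.18 and Gtf2e2 at 51.6 ± 11.1 CPM per kilobase (SD, n = 2), which encode parts of TFIIH and TFIIE.

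Of the 8 genes of enhancer cofactors and cohesin loading, only the loader gene Nipbl was past 2-fold, 1 gene beside the same background of 9.54% lower, at 351 CPM in P33 and 175 in P42, a ratio of −1.01 (−1.05 to −0.96). The list's median was −0.00. Rad21 was the most abundant, at 162 ± 0.386 CPM per kilobase, followed by Smc3 at 83.9 ± 9.32 (SD, n = 2). Among the 13 elongation factor genes 12 averaged 1 CPM or more and none of those was past 2-fold, with a median of −0.21. Supt4a at 38.8 ± 6.65 and Supt5 at 33.1 ± 1.35 CPM per kilobase led it (SD, n = 2). Ell3, under the minimum, had 21 and 3 counts. Both genes past 2-fold, Polr2f and Nipbl, lie on chromosome 15, as do Ep300 at −0.62, Ccnt1 at −0.51, Polr2k at −0.22, Rad21 and Med30.

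**Figure D5:**
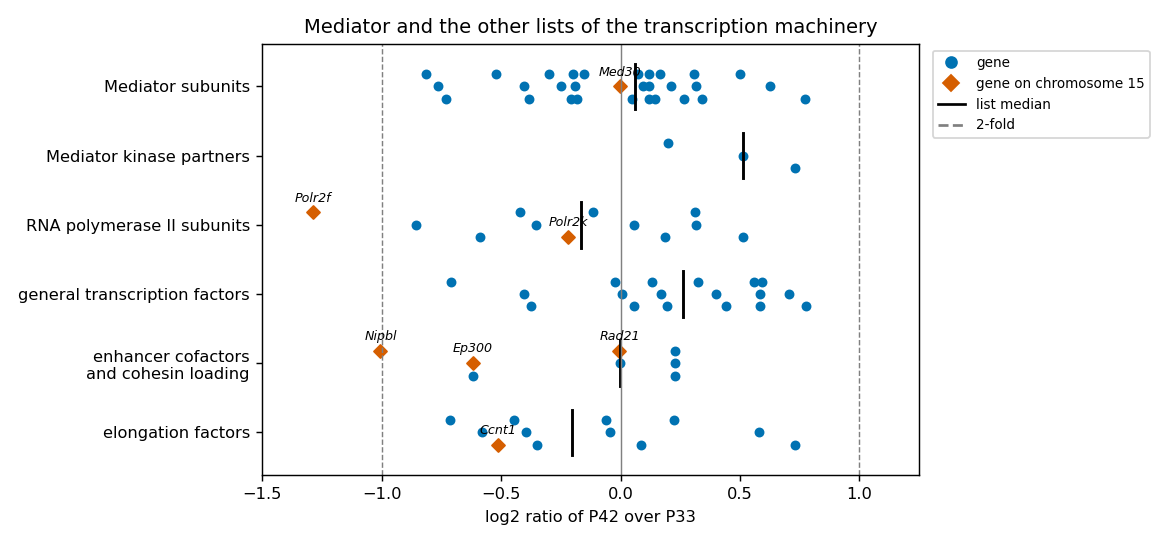
Log2 ratio of P42 over P33 for the Mediator subunit genes and the 5 other lists, 1 point per tested gene, with orange diamonds for genes on chromosome 15, black bars at each list's median and dashed lines at 2-fold. Polr2f and Nipbl are the points beyond the dashed lines, and the list medians lie between −0.21 and 0.51 (all lower by 0.14 when scaled by total counts, with the Mediator median then below 0).

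Promoter sequences of RefSeq (GRCm38.p6), each 250 bases before to 50 after a start, were matched for 26 of the 30 genes. The promoters of Med8, Med23, Med24 and Med30 were not used here. For the genes nearest to 2-fold, the bases before the start that lie in no annotated exon are printed with each CG step in capitals, since CG-rich promoters are the usual kind for genes active in every tissue.
Med12: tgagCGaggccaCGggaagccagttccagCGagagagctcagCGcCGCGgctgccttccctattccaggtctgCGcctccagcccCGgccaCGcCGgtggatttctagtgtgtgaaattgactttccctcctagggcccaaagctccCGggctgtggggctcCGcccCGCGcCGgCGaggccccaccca
Med7: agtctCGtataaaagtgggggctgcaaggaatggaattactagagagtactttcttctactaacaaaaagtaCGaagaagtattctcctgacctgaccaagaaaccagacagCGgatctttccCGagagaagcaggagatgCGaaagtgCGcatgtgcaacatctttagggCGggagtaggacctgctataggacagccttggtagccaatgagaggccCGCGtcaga
Med16: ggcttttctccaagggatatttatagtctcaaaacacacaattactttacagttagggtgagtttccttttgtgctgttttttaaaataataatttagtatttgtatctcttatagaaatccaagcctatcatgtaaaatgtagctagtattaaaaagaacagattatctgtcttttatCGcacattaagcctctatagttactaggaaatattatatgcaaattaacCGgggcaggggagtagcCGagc
These windows are chrX:101273841-101274029 (plus strand), chr11:46436697-46436924 (plus strand) and chr10:79908939-79909188 (minus strand). They hold 16 CG steps in 189 bases for Med12, 9 in 228 bases for Med7 and 3 in 250 bases for Med16. The full 300 bases hold 27 for Med12, 13 for Med7 and 8 for Med16. Med7 has 2 windows, of which the one with the lower start is printed, and the other holds 12. Over the whole windows of 300 bases the 30 windows of these 26 genes held a median of 19 CG steps, between 3 (Med27, 1 of 2 windows) and 61 (Med13l), beside 21 for detected protein-coding genes and 7 for all promoters. The promoter window of Med12l held 30, more than the 27 of Med12, although its transcript level per kilobase was lower in both libraries.

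Short motifs were searched on both strands of the 300 bases, and a match describes letters only. The ETS family core CCGGAAG was in 8 of the 26 genes (30.8%), beside 21.1% of detected protein-coding genes and 9.93% of all genes with a promoter. These 8 were Med4, Med6, Med10, Med14, Med15, Med17, Med18 and Med19. The GC box GGGCGG was in 17 genes (65.4%), beside 71.4% and 38.2%, and CCAAT in 10 (38.5%), beside 43.8% and 41.1%. TATAAA was in 3 genes (11.5%), Med7 (in its printed window only), Med16 and Med28, beside 8.08% and 15.7%. CACGTG was in 3 (11.5%), Med17, Med28 and Med31, beside 12.2% and 8.09%.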

How the data were processed

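The authors deposited raw counts per Ensembl gene, with a table for each library. The submitters' processing notes name mm10, featureCounts 1.4.5-p1 and STAR 2.4.2a. Which annotation was counted, whether strand was used and how multi-mapped reads were treated is not given in the sources used here. Of the 30 genes 13 share exon bases with a gene on the opposite strand and 4 with one on the same strand. The largest shares of exon bases, all on the opposite strand, were 92.8% for Med10, 26.3% for Med31, 21.4% for Med20 and 21.2% for Med7. Whether reads from these bases were counted is not known, and the effect on levels and ratios was not tested.

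Symbols, lengths and GC content came from GENCODE M21 on GRCm38, the same assembly, which matched 42548 of 43629 identifiers. Scaling was by TMM in edgeR 4.0.16 (R 4.3.3), where 1 CPM stood for 42.2 counts in P33 and 37.8 in P42. Log2 ratios used a prior count of 0.5. A gene was past 2-fold when its mean was at least 1 CPM, the libraries differed 2-fold and the interval excluded equality. PCR copies are not independent molecules, so intervals cover counting error only. The labels do not say whether separate cultures were sequenced, and the SD of 2 values may therefore be technical.

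The subunit genes and lists were chosen with earlier results of these data known. Named in full are the 3 highest and 3 lowest genes per kilobase, the 3 nearest to 2-fold, the kinase module paralogs, the extremes of each module, and of each other list the 2 most abundant genes and those past 2-fold. Other names were chosen after their values were seen. Also tried were total counts, size factors of DESeq2 1.42.0, a prior count of 2, other CPM minimums and fold thresholds, a lowess trend (span 0.3, statsmodels 0.14.6) on GC content and length, the longest transcript's length, and each library alone. The ratio rule was tried on data simulated with counting error only. That trial cannot show how the rule behaves with the larger differences between these libraries. Other steps used Python 3.11.15.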

Additional observations from a re-analysis of the deposited data

How the results depend on the processing

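DESeq2 size factors, a prior count of 2 and no or a higher CPM minimum changed no count past 2-fold and no sign among the 30 subunit genes. At 1.5-fold 2 were higher and 3 lower. Scaling by total counts changed 6 signs (Med1, Med9, Med13, Med17, Med19 and Med26) and removal of the trend on GC content and length 7 (Med6, Med13, Med13l, Med17, Med19, Med25 and Med28). The median of the 30 genes was −0.080 by total counts and −0.073 with the trend removed, against 0.06. By total counts the medians were 0.37 for kinase partners, 0.12 for general transcription factors, −0.15 for enhancer cofactors and −0.35 for elongation factors. With the trend removed they were 0.20, 0.020 and −0.17 for the first 3 of these. Without a CPM minimum the elongation median was −0.35, with Ell3, 1 gene, past 2-fold lower. At 1.5-fold the counts were 1 kinase partner higher, 3 polymerase genes lower, 3 general factors higher and 1 lower, 3 enhancer cofactors lower, and 1 elongation gene higher and 1 lower. At 3-fold 0 polymerase genes and 0 enhancer cofactors were lower. Per kilobase of the longest transcript the shares were 95.01% for Med12, 50.3% for Med13 and 84.1% for Cdk8, and the kinase module ranked 3 and the scaffold 4 by median level.

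The median subunit level was 42.5 CPM in P33 alone and 41.0 CPM in P42 alone. Each library alone gave ranks of 3 to 4 for the scaffold and of 3 to 4 for the kinase module. Leaving out a library leaves no ratio. No paired analysis was possible because the labels hold 1 group. Depth limits Med12l most, with 140 counts in P42.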
